A study of Homo sapiens with 6 samples.

Results

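The amino acid transporter genes of the solute carrier (SLC) families 1, 3, 6, 7, 36, 38 and 43 were examined in HEYA8, an established line of human ovarian cancer, after knockdown of ETS1. They are every row of the deposited table whose symbol is one of these family names followed by A and a number, 59 genes of 20061 rows. The families were chosen with earlier results of these data known. One group stably expressed a lentiviral short hairpin RNA (shRNA) against the transcription factor ETS1, founder of the ETS family (shETS1, 3 samples). The other carried an shRNA against luciferase, which has no human target and served as negative control (shLuciferase, 3 samples). Both were the same line, kept under puromycin to select for the hairpin construct, and the labels give neither the hairpin sequences nor the number of hairpins or clones per group, so an effect of a particular hairpin or cell pool cannot be told apart from that of lower ETS1. Polyadenylated RNA was sequenced, and the authors deposited 1 value per gene and group in FPKM (fragments normalised for the length of the transcript and the size of the library), so that levels can be compared between genes but no spread between samples can be given.

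Amino acid transporters are membrane proteins that set which amino acids a cell can take up, exchange or release, and many work as exchangers that trade an internal amino acid for an external one. The SLC7 light chains carry the substrate but reach the cell surface only when joined to an SLC3 heavy chain. SLC7A11, known as xCT, pairs with SLC3A2 (CD98 heavy chain) and brings in cystine in exchange for glutamate; the cysteine made from it feeds glutathione, and loss of this supply is a known route to ferroptosis in cancer cells. SLC1A5, SLC38A1 and SLC38A2 bring in glutamine and other small neutral amino acids, SLC7A5 brings in leucine and other large neutral ones, and SLC36 and some SLC38 proteins sit on the lysosome, where they take part in amino acid sensing by mTORC1. The name rule also takes in carriers of other substrates, such as the noradrenaline, dopamine and serotonin transporters (SLC6A2, SLC6A3 and SLC6A4), the creatine transporter SLC6A8 and the purine nucleobase carrier SLC43A3.

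Of the 59 genes, SLC7A11 alone passed the authors' test, and it was higher in shETS1. A total of 26 genes had been tested by the authors and 33 had not, and the untested ones all stood below 0.4 FPKM in both groups. By the authors' deposited table, a q-value of at most 0.05 was reached by 1 of those 26 members (3.85%) with a higher level in shETS1 and by none with a lower one. Over all 11952 tested rows that threshold was passed by 0.812%, with 0.544% higher and 0.268% lower in shETS1, and at this background a single call among 26 genes says nothing of the families as a whole. At an unadjusted p under 0.05 there were 5 members (19.2%) by the authors' deposited table, against 6.94% of all tested rows. Of these, SLC7A11 and SLC36A4 were higher (7.69%, against 3.9% of all tested rows) and SLC36A1, SLC43A3 and SLC6A6 were lower (11.5%, against 3.04%). Without SLC7A11, 4 of 25 tested members (16%) were under that p, 4% higher and 12% lower. For the 25 tested members whose groups averaged 1 FPKM or more, the median log2 fold change was 0.12, against 0.02 for the 10676 tested genes above the same level, and the median absolute log2 fold change was 0.19 in members and 0.18 in all genes. A fold change above 1 was seen in 15 of the 25 (60% against 52.6% of all genes at that level). Without SLC7A11 the members' median log2 fold change was 0.10, and 14 of 24 (58.3%) had a fold change above 1. Among SLC genes of other families, 2 of 147 tested were called (1.36%), both lower in shETS1 (SLC24A6 and SLC37A1, named after their values were seen); the difference between the families was not tested.

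ETS1 itself stood at 17.9 FPKM in shETS1 and 41.4 FPKM in shLuciferase, 56.9% lower, and the authors' deposited table gives it a q of 0.00964. Depth per sample is unknown from FPKM values, and nothing in the labels says that replicates came from separate cultures. How the authors' test estimated spread is not described in what was used here. The spread between these samples may be technical only. The 7 listed epithelial markers of ovarian carcinoma summed to 3778 FPKM in shETS1 and 5229 FPKM in shLuciferase, with a median log2 fold change of -0.29 over the 6 tested and none called. Most of this was keratin, with KRT18 at 1498 FPKM in shETS1 and 2044 FPKM in shLuciferase and KRT8 at 1288 FPKM in shETS1 and 1913 FPKM in shLuciferase. PAX8 was at 76.8 FPKM in shETS1 and 79.7 FPKM in shLuciferase. WT1 (3.13 FPKM in shETS1 and 3.58 FPKM in shLuciferase) and EPCAM (1.82 FPKM in shETS1 and 1.71 FPKM in shLuciferase) were low, and MUC16 was listed at 0 in shETS1 and at 0.000625 FPKM in shLuciferase. Leukocyte markers summed to 47.6 FPKM in shETS1 and 49.2 FPKM in shLuciferase, nearly all of it CD68, with PTPRC, CD3E and TYROBP at 0 in both groups. Endothelial markers summed to 127 FPKM in shETS1 and 182 FPKM in shLuciferase. Most of this was TIE1 (122 FPKM in shETS1 and 164 FPKM in shLuciferase), which was not called. Of the 2 tested, CDH5 was called lower, at 5.00 FPKM in shETS1 and 17.6 FPKM in shLuciferase. Over all tested rows 0.268% were called lower. Fibroblast markers summed to 3.88 FPKM in shETS1 and 1.39 FPKM in shLuciferase, with COL3A1 and DCN at 0 in both and COL1A1 called higher. Adipocyte markers summed to 0.358 FPKM in shETS1 and 0.121 FPKM in shLuciferase with LEP at 0, and markers of neurons and glia to 15.2 FPKM in shETS1 and 24.2 FPKM in shLuciferase, mostly of RBFOX3 and GAD1, neither of them called, with OLIG2 at 0. The part of these marker genes in the transporter values was not tested.

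**Figure D1:**
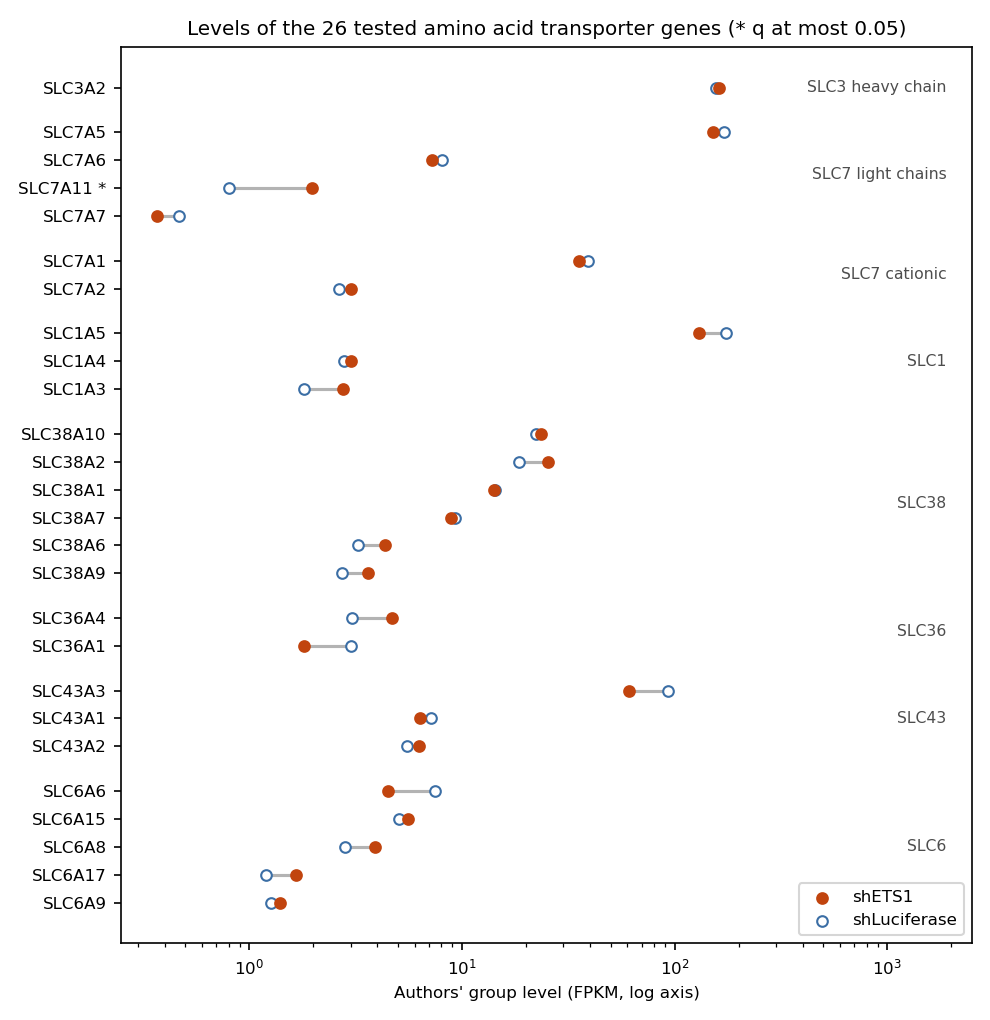
Authors' group levels (FPKM, horizontal log axis) of the 26 tested genes, grouped by family, with filled points for shETS1 and open points for shLuciferase; a grey line joins the 2 values of a gene, and the star marks a q-value of at most 0.05. SLC3A2, SLC7A5 and SLC1A5 lie above 100 FPKM in both groups, and the longest line is that of SLC7A11, at 1.96 FPKM in shETS1 and 0.799 FPKM in shLuciferase.

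The transporter pool of these cells was dominated by a few genes. SLC3A2, SLC7A5 and SLC1A5 together made up 65.7% of the summed FPKM of all 59 members in shETS1 and 66.1% in shLuciferase. The order of the leading genes differed between the groups. In shETS1 it was SLC3A2 (161 FPKM), SLC7A5 (151 FPKM), SLC1A5 (131 FPKM), SLC43A3 (60.8 FPKM) and SLC7A1 (35.4 FPKM), whereas in shLuciferase it was SLC1A5 (175 FPKM), SLC7A5 (170 FPKM), SLC3A2 (156 FPKM), SLC43A3 (92.6 FPKM) and SLC7A1 (38.9 FPKM). None of these 5 was called, and with 1 value per group the order of the 3 leading genes, which lie within 131 to 175 FPKM, cannot be set against a spread. The summed level of all members was 675 FPKM in shETS1 and 757 FPKM in shLuciferase.

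Promoter sequences were read from RefSeq (GRCh38.p14), 250 bases before to 50 after each annotated start, and 21 of the 26 tested genes had 39 such windows; SLC7A11, SLC6A6, SLC6A15, SLC7A2 and SLC43A3 had none that was used. Each window was searched on both strands for CGGAAG, one form of the sequence that ETS factors bind, so other forms were not counted. It was also searched for TGATGNAA, the composite element bound by C/EBP and ATF proteins that amino acid shortage acts through. The last sequence searched was TGACNNNGC, the core of the antioxidant response element bound by NRF2. None of the matches in the windows printed here overlap. CGGAAG was found in 7 of 39 member windows (17.9%) against 19.5% of 35116 windows of all genes, TGACNNNGC in 7 (17.9%) against 13.3%, and TGATGNAA in 6 (15.4%) against 3.62%. The windows of all genes were not limited to tested genes or by chromosome as those of members were. These shares therefore come from unlike sets, and their differences were not tested. The members with CGGAAG were SLC1A4, SLC1A5, SLC36A1, SLC38A1, SLC38A10, SLC38A6 and SLC7A6, none of them called. Their log2 fold changes of shETS1 over shLuciferase were 0.12, -0.42, -0.75, -0.02, 0.08, 0.41 and -0.17, in that order. The members with TGATGNAA were SLC1A3, SLC1A4, SLC1A5, SLC38A1, SLC3A2 and SLC7A1, and windows of one gene can share bases. A match describes letters and is not a binding site. The windows below show CGGAAG in SLC36A1, the member with the lowest unadjusted p after SLC7A11, and in SLC1A5, one of the 3 most abundant. The other 2 elements are shown in SLC3A2, the heavy chain that SLC7A11 needs, and in SLC7A1, the main arginine carrier. Each window is written 5′ to 3′ along the gene's strand. Capitals mark CGGAAG or its reverse complement in the SLC36A1 and SLC1A5 windows. In those of SLC3A2 and SLC7A1 they mark TGATGNAA or TGACNNNGC, in either orientation.
SLC36A1 (chr5:151447353-151447652, plus strand): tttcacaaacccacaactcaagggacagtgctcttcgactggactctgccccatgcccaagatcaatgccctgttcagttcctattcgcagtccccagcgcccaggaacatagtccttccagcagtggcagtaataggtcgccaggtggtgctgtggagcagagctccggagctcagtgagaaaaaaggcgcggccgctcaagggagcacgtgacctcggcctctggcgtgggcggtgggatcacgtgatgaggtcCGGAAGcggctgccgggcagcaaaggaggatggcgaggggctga
SLC1A5 (chr19:46788545-46788844, minus strand): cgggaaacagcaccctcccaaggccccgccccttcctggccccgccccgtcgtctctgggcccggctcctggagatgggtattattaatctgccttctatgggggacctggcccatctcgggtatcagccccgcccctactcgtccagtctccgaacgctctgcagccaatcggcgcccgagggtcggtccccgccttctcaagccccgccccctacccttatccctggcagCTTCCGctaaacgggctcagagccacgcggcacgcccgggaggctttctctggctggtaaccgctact
SLC3A2 (chr11:62881449-62881748, plus strand): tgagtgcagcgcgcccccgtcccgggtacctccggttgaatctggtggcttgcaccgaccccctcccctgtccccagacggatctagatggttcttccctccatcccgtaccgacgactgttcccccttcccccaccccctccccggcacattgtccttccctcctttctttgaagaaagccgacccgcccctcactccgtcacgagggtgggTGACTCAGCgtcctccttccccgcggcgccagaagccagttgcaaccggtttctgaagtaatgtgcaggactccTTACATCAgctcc
SLC7A1 (chr13:29595639-29595938, minus strand): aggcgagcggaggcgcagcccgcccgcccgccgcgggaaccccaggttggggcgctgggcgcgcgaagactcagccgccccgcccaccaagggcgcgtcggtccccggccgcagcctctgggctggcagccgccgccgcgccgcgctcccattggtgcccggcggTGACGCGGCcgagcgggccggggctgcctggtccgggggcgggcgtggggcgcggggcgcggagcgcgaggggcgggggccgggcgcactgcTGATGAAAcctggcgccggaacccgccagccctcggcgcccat

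SLC7A11 was the one light chain that rose, while neither its heavy chain nor any other light chain was called. SLC7A11 (chromosome 4, 139085248 to 139163503, hg19) stood at 1.96 FPKM in shETS1 and 0.799 FPKM in shLuciferase, 2.45-fold higher, with p = 5e-05 and q = 0.00964 by the authors' deposited table. That p-value is the smallest in the table and is shared by 62 tested genes. By fold change SLC7A11 was number 29 of the 65 genes called higher. Its level was low for a called gene: only 11 of those 65 were under 1 FPKM in shLuciferase, and 8 were under 2 FPKM in shETS1. Among the 1200 tested genes with a mean from 1 to 2 FPKM, 13 were called, the smallest called change was 2.01-fold, and genes with an unadjusted p near 0.05 (0.04 to 0.06) had a median change of 1.54-fold. Its log2 ratio was 1.29, and 0.72 when computed after adding 1 FPKM to each group. On the opposite strand GENCODE 29 annotates SLC7A11-AS1, whose gene overlaps that of SLC7A11, and no strand-marking step is described for these libraries, so reads of the pair cannot be told apart.

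The heavy chain SLC3A2 was at 161 FPKM in shETS1 and 156 FPKM in shLuciferase, a log2 fold change of 0.05 (q = 1.00 by the authors' deposited table). It exceeded SLC7A11 by 82.3 times in shETS1 and by 196 times in shLuciferase. The other heavy chain, SLC3A1, the partner of SLC7A9 in kidney and gut, was not tested, at 0.362 FPKM in shETS1 and 0.258 FPKM in shLuciferase. SLC7A5 (LAT1) held nearly all of the light chain signal, at 151 FPKM in shETS1 and 170 FPKM in shLuciferase. SLC7A6, which exchanges arginine for neutral amino acids, was at 7.21 FPKM in shETS1 and 8.09 FPKM in shLuciferase, and its locus overlaps that of SLC7A6OS, so its reads are uncertain. The related SLC7A7 was at 0.370 FPKM in shETS1 and 0.467 FPKM in shLuciferase. The 3 had log2 fold changes of -0.16 for SLC7A5, -0.17 for SLC7A6 and -0.34 for SLC7A7, the other direction from SLC7A11, and none was called. Of the summed FPKM of the 6 light chains that pair with SLC3A2 (SLC7A5, SLC7A6, SLC7A7, SLC7A8, SLC7A10 and SLC7A11), SLC7A11 therefore made up 1.22% in shETS1 and 0.446% in shLuciferase. SLC3A2 amounted to 1.00 FPKM per FPKM of these light chains in shETS1 and 0.873 in shLuciferase.

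SLC7A5 has near-identical pseudogene copies in the table that may share its reads. SLC7A5P1 was at 1.12 FPKM in shETS1 and 0.901 FPKM in shLuciferase, and SLC7A5P2 was at 0.797 FPKM in shETS1 and 0.957 FPKM in shLuciferase. Both are small beside the level of SLC7A5.

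**Figure D2:**
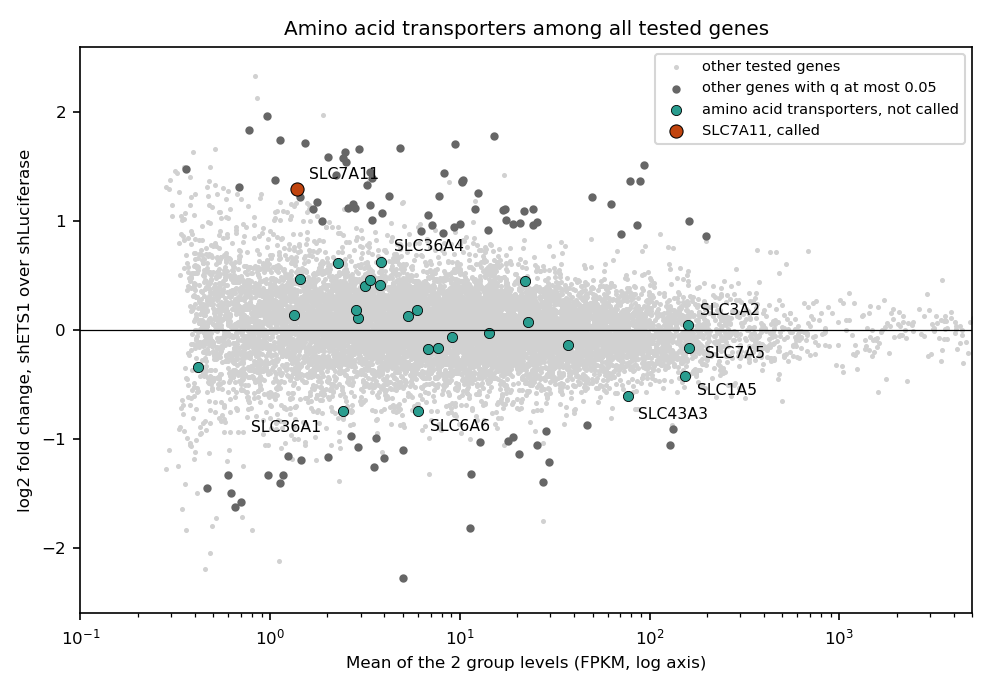
Vertical axis, log2 fold change of shETS1 over shLuciferase; horizontal log axis, the mean of the 2 group levels in FPKM. Points are tested genes, with members in green and SLC7A11 in orange, other called genes in dark grey and the rest in light grey; 20 tested genes outside the axes or with no finite fold, none of them a member, are not drawn. SLC7A11 lies at 1.29 on the log2 scale and the other members lie between -0.75 and 0.63.

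The cationic carriers of SLC7 did not pass the test. SLC7A1 (CAT1), the widespread importer of arginine and lysine, was at 35.4 FPKM in shETS1 and 38.9 FPKM in shLuciferase. SLC7A2, a carrier of the same kind that macrophages and liver use, was at 3.00 FPKM in shETS1 and 2.64 FPKM in shLuciferase. The log2 fold changes were -0.14 and 0.18, and both had q = 1.00 by the authors' deposited table. SLC7A3 and SLC7A4 were listed at 0 in both groups, and SLC7A14 was at 0.0186 FPKM in shETS1 and 0.0302 FPKM in shLuciferase.

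In the SLC1 family the most abundant member and the glutamate carrier had values in opposite directions, neither of them called. SLC1A5 (ASCT2), the glutamine exchanger, was at 131 FPKM in shETS1 and 175 FPKM in shLuciferase, 1.34-fold lower, with an unadjusted p of 0.104 (q = 0.901) by the authors' deposited table. Genes with a mean of 100 FPKM or more and an unadjusted p of 0.04 to 0.06 there had a median change of 1.39-fold, and the smallest called change at that level was 1.83-fold. SLC1A3 (EAAT1), which takes up glutamate and aspartate, was at 2.77 FPKM in shETS1 and 1.81 FPKM in shLuciferase, 1.53-fold higher, with an unadjusted p of 0.0516 (q = 0.735) by the authors' deposited table. SLC1A4 (ASCT1), a serine and alanine exchanger, was at 3.02 FPKM in shETS1 and 2.78 FPKM in shLuciferase. The other glutamate carriers of the family were low and not tested: SLC1A1 was at 0.165 FPKM in shETS1 and 0.212 FPKM in shLuciferase, and SLC1A2, SLC1A6 and SLC1A7 were below those levels.

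The SLC38 family held 6 tested members, none called, with a median log2 fold change of 0.24. SLC38A2 (SNAT2), the sodium-coupled carrier known to be induced when amino acids run short, was at 25.4 FPKM in shETS1 and 18.6 FPKM in shLuciferase, 1.37-fold higher, with an unadjusted p of 0.0637 (q = 0.792) by the authors' deposited table. SLC38A1 (SNAT1), its neighbour on chromosome 12, was at 14.1 FPKM in shETS1 and 14.3 FPKM in shLuciferase. SLC38A10 was at 23.5 FPKM in shETS1 and 22.3 FPKM in shLuciferase. Of the lysosomal members, SLC38A7, which exports glutamine, was at 8.87 FPKM in shETS1 and 9.25 FPKM in shLuciferase. SLC38A9, the arginine sensor that acts on the Rag GTPases, was at 3.61 FPKM in shETS1 and 2.72 FPKM in shLuciferase. SLC38A6 was at 4.34 FPKM in shETS1 and 3.26 FPKM in shLuciferase, 1.33-fold higher. The 6 together summed with the untested members to 80.0 FPKM in shETS1 and 70.5 FPKM in shLuciferase.

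The proton-coupled SLC36 carriers had values in opposite directions. SLC36A1 (PAT1), a lysosomal carrier of glycine, alanine and proline, was at 1.80 FPKM in shETS1 and 3.02 FPKM in shLuciferase, 1.68-fold lower, with an unadjusted p of 0.0046 (q = 0.212) by the authors' deposited table. SLC36A4 (PAT4), which carries proline and tryptophan, was at 4.68 FPKM in shETS1 and 3.03 FPKM in shLuciferase, 1.55-fold higher, with an unadjusted p of 0.0236 (q = 0.529) by the authors' deposited table. Neither passed the adjusted threshold. In shLuciferase the pair were at nearly the same level, and in shETS1 SLC36A4 was the higher one. SLC36A2 and SLC36A3, which lie beside SLC36A1 on chromosome 5, were not tested, at 0.119 and 0.0805 FPKM in shETS1 and 0.0783 and 0.0409 FPKM in shLuciferase.

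All 3 SLC43 members were tested and none was called. SLC43A3, the purine nucleobase carrier, was at 60.8 FPKM in shETS1 and 92.6 FPKM in shLuciferase, 1.52-fold lower, with an unadjusted p of 0.0117 (q = 0.367) by the authors' deposited table. Its locus is shared in the table with PRG2, which was at 0.988 FPKM in shETS1 and 2.04 FPKM in shLuciferase, so reads may be divided between them. The amino acid carriers of the family, SLC43A1 (LAT3) and SLC43A2 (LAT4), which move leucine and other large neutral amino acids, were at 6.36 and 6.29 FPKM in shETS1 and 7.19 and 5.53 FPKM in shLuciferase. SLC43A3 held most of the difference in the family's summed level, which was 73.5 FPKM in shETS1 and 105 FPKM in shLuciferase.

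Of the 19 SLC6 members, the sodium- and chloride-coupled carriers of neurotransmitters, amino acids and osmolytes, 5 were tested and none was called. SLC6A6, the taurine transporter, was at 4.48 FPKM in shETS1 and 7.48 FPKM in shLuciferase, 1.67-fold lower, with an unadjusted p of 0.0176 (q = 0.462) by the authors' deposited table. The deposited locus of SLC6A6 is shared with GRIP2, which was under 0.06 FPKM in both groups. SLC6A8, the creatine transporter, was at 3.88 FPKM in shETS1 and 2.83 FPKM in shLuciferase, 1.37-fold higher, with an unadjusted p of 0.0909 in the authors' deposited table. SLC6A15, a carrier of branched-chain amino acids and proline in brain, was at 5.57 FPKM in shETS1 and 5.08 FPKM in shLuciferase. SLC6A17, a vesicular carrier of neutral amino acids in neurons, was at 1.66 FPKM in shETS1 and 1.20 FPKM in shLuciferase. SLC6A9, the glycine transporter GlyT1, was at 1.39 FPKM in shETS1 and 1.27 FPKM in shLuciferase, and its locus is shared with CCDC24 at 6.76 and 6.56 FPKM, so its reads are uncertain.

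The 33 untested members were low. The highest was SLC3A1 in both groups, and 6 were listed at 0 in both (SLC6A2, SLC6A14, SLC7A3, SLC7A4, SLC7A13 and SLC38A11). A further 6 were listed at 0 in shETS1 only and 4 in shLuciferase only, all with less than 0.03 FPKM in the other group. The noradrenaline, dopamine and serotonin transporters were at no more than 0.0115 FPKM in either group, and SLC6A11, SLC6A12 and SLC6A13 at no more than 0.147 FPKM. SLC7A14, whose locus is shared with the abundant CLDN11, and SLC7A10, whose locus is shared with LRP3, were also among the untested genes.

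Transcript base composition moved with these values. SLC7A11 has a transcript GC content of 35.4%, and the 248 expressed genes (mean of at least 1 FPKM) within 1 percentage point of it had a median log2 fold change of 0.26, with 225 above 0 (90.7%). Of the 11 members at 1 FPKM or more with a GC content below the median of expressed genes (48.8%), 9 had a log2 fold change above 0 and their median was 0.41, where all such expressed genes had 71.7% above 0 and a median of 0.12. Of the 14 members at or above that GC content, 6 were above 0 and their median was -0.10, where all such genes had 33.5% above 0 and a median of -0.10. This division was made after the values were seen. With a cubic trend on GC content removed, the log2 fold change was 1.03 for SLC7A11, 0.36 for SLC36A4 (0.63 before), 0.53 for SLC1A3 (0.61 before) and 0.25 for SLC38A2 (0.45 before), while it was -0.71 for SLC36A1 and -0.71 for SLC6A6 and -0.55 for SLC43A3 (-0.75, -0.74 and -0.61 before). The log2 fold change grew to 0.60 for SLC6A8 (0.46 before) and to 0.58 for SLC6A17 (0.47 before), the highest values after SLC7A11. The part of base composition in the authors' test was not tested.

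**Figure D3:**
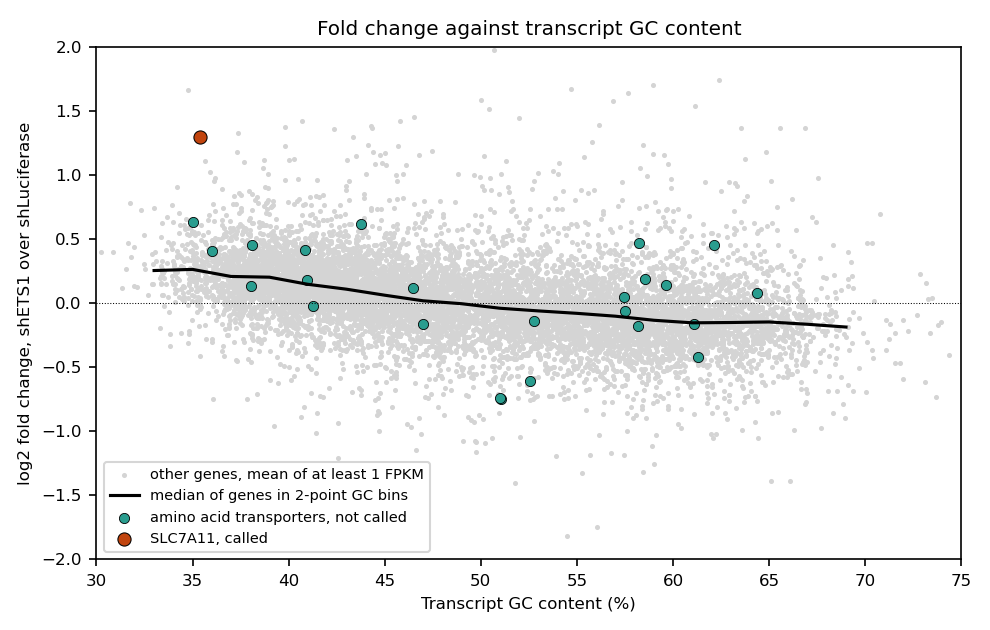
Vertical axis, log2 fold change of shETS1 over shLuciferase; horizontal axis, transcript GC content in percent. Points are genes with a mean of at least 1 FPKM, with the median of 2-point GC bins as a black line; members are green, SLC7A11 is orange. SLC7A11, at 35.4% GC, lies above the line at 1.29, and the line falls with rising GC content.

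Genes that act beside the transporters were counted from lists, whose counts stand against 0.812% of all tested rows called and 6.94% at an unadjusted p under 0.05 (3.9% higher and 3.04% lower in shETS1). At that share of calls, none called on a list of this size says little. The lists share genes, among them CTH, GCLM, BCAT1 and SESN2, so their counts are not independent of each other. The list of cystine, glutathione and ferroptosis genes had 24 tested members and none called, with 2 higher and 1 lower at an unadjusted p under 0.05 by the authors' deposited table and a median log2 fold change of 0.16. GCLM, the modifier subunit of the enzyme that starts glutathione synthesis, was at 6.17 FPKM in shETS1 and 3.62 FPKM in shLuciferase, with an unadjusted p of 0.00275 (q = 0.159) by the authors' deposited table. GPX8, a peroxidase of the endoplasmic reticulum, was the other one higher at that threshold, at 24.6 FPKM in shETS1 and 17.8 FPKM in shLuciferase. CTH, which makes cysteine from cystathionine, was at 1.04 FPKM in shETS1 and 1.69 FPKM in shLuciferase, with q = 0.592 by the authors' deposited table. The most abundant genes of the list were FTL (ferritin light chain) at 4162 FPKM in shETS1 and 4523 FPKM in shLuciferase and GPX1 at 1148 FPKM in shETS1 and 1181 FPKM in shLuciferase.

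ATF4 is the transcription factor that amino acid shortage brings up, and SLC7A11 and SLC3A2 are among its known targets. Of 25 tested genes of the ATF4 and amino acid deprivation list none was called, and in the authors' deposited table there were 5 higher at an unadjusted p under 0.05 (ASNS, BCAT1, VLDLR, JDP2 and DDIT4) and 3 lower (TRIB3, SESN2 and CTH), 8 of 25 where all tested rows gave 6.94%, with a median log2 fold change of 0.10. ASNS, asparagine synthetase, was at 25.4 FPKM in shETS1 and 16.1 FPKM in shLuciferase with q = 0.299 by the authors' deposited table. TRIB3, which restrains ATF4, was at 12.4 FPKM in shETS1 and 19.5 FPKM in shLuciferase with q = 0.254 there. ATF4 itself was at 461 FPKM in shETS1 and 393 FPKM in shLuciferase, and EIF4EBP1, a translation repressor, at 431 FPKM in shETS1 and 469 FPKM in shLuciferase.

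NRF2 is another factor known to drive SLC7A11, in response to oxidants. Of 20 tested NRF2 targets and regulators none was called, and in the authors' deposited table there were 2 higher at an unadjusted p under 0.05 (GCLM and AKR1C1) and 1 lower (OSGIN1), where all tested rows gave 3.9% higher and 3.04% lower, with a median log2 fold change of 0.12. AKR1C1, an aldo-keto reductase, was at 12.6 FPKM in shETS1 and 4.92 FPKM in shLuciferase, with an unadjusted p of 0.0344 (q = 0.632) by the authors' deposited table; it has near-identical neighbours, so its reads are uncertain. TKT and TALDO1, enzymes of the pentose phosphate pathway, were at 476 and 234 FPKM in shETS1 and 495 and 233 FPKM in shLuciferase.

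Of 23 tested aminoacyl-tRNA synthetase genes, which charge transfer RNAs with amino acids, 1 was called and it was higher in shETS1, against 0.544% of all tested rows called higher. HARS, which charges histidine, rose to 86.5 FPKM in shETS1, against 38.8 FPKM in shLuciferase (2.23-fold), with q = 0.00964 by the authors' deposited table. HARS2, its mitochondrial relative that lies next to it on chromosome 5, was at 11.6 FPKM in shETS1 and 13.4 FPKM in shLuciferase. The median of the list was 0.02, and VARS and QARS, the most abundant, were at 178 and 171 FPKM in shETS1 and 207 and 153 FPKM in shLuciferase.

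None was called on the other 3 lists. Among 25 tested genes of serine, glutamine, proline and arginine metabolism the median was 0.02, and in the authors' deposited table there was 1 gene higher at an unadjusted p under 0.05, BCAT1, which breaks down branched-chain amino acids, at 20.0 FPKM in shETS1 and 12.8 FPKM in shLuciferase. SHMT2 and ODC1 were at 225 and 208 FPKM in shETS1 and 226 and 208 FPKM in shLuciferase. Among 30 tested genes of lysosomal amino acid sensing and mTORC1 the median was -0.04, with RRAGD higher and SESN2 lower at that unadjusted threshold; RRAGD, a Rag GTPase, was at 1.16 FPKM in shETS1 and 0.755 FPKM in shLuciferase, while LAMTOR1 and SEC13 were at 163 and 156 FPKM in shETS1 and 173 and 157 FPKM in shLuciferase. Among 12 tested amino acid and peptide carriers of other families and partner proteins the median was 0.11, with SLC25A15 higher and SLC25A22 lower at that threshold. SLC25A22, a mitochondrial glutamate carrier, was at 21.8 FPKM in shETS1 and 34.7 FPKM in shLuciferase, with q = 0.214 by the authors' deposited table. CD44, a surface receptor known to stabilise SLC7A11 protein, was at 184 FPKM in shETS1 and 129 FPKM in shLuciferase with an unadjusted p of 0.109 there, and MFSD12, a lysosomal cysteine carrier, was at 140 FPKM in shETS1 and 157 FPKM in shLuciferase.

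**Figure D4:**
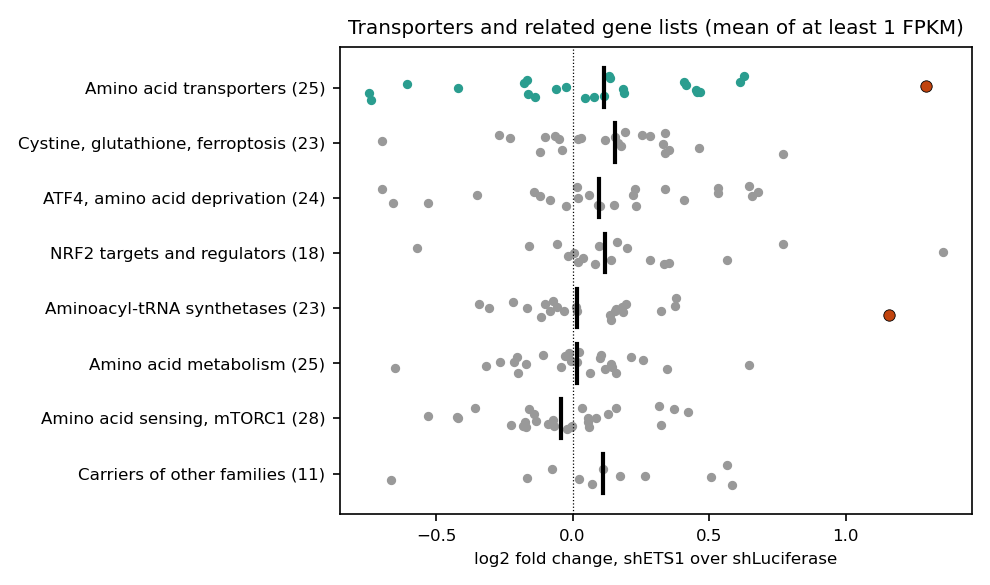
Horizontal axis, log2 fold change of shETS1 over shLuciferase. Points are genes with a mean of at least 1 FPKM, from the transporters (green) and 7 related lists (grey), with the number of genes in parentheses; orange points are genes at a q-value of at most 0.05 and black bars are medians. The orange points are SLC7A11 at 1.29 and HARS at 1.16, and all medians lie between -0.04 and 0.16.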

How the data were processed

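Polyadenylated RNA of HEYA8 cells was sequenced in 3 shETS1 and 3 shLuciferase samples. The submitters' processing notes name build hg19 and, with no roles, Bowtie2 2.0.6, Cufflinks 2.1.1, SAMtools 0.1.18 and TopHat2 2.0.7; the annotation and the scaling between libraries are not stated in what was used here. Per the file headers, the authors deposited 1 FPKM value per gene and group, beside p- and q-values, in the layout of Cuffdiff. No value per sample was used, so no test, interval or SD was computed here, and limma, planned in case replicate values were found, was not run. Adjusting the deposited p-values over 11952 tested rows (Benjamini-Hochberg) returned the deposited q-values within 5.16e-07. Genes with a deposited q-value up to 0.05 were called.

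Fold changes were computed from the FPKM values as shETS1 over shLuciferase, because the deposited fold change column holds spreadsheet error text. Medians used tested genes with a mean of at least 1 FPKM. Alternatives were 0.1 or 1 FPKM added, filters of 1 or 5 FPKM, a q-value of 0.1, adjustment over expressed genes alone, centring and removal of a GC trend. GC content came from GENCODE 29 transcripts by symbol (longest coding sequence), found for 26 of 26 tested members and 91.2% of 10676 expressed rows. Adjustment and trend removal were tested on simulated data. Deposited loci (hg19) had 1 added to the start. Named genes were ETS1, each member at 1 FPKM or more, called members, and per list the called genes, the largest change at an unadjusted p under 0.05 and the 2 most abundant genes; other names were chosen after their values were seen. Untested members are given by counts and ranges, and not all of them are named here. The members and lists were chosen with earlier results of these data known. Symbols of 5 genes of the mTORC1 list and PECAM1 were not matched. Python 3.11.15, numpy 2.4.6, pandas 2.3.3, scipy 1.17.1 and matplotlib 3.10.9 were used.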

Additional observations from a re-analysis of the deposited data

How the results depend on the processing

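No paired analysis was possible because the table holds 1 value per gene and group; for the same reason no replicate could be left out. The call of SLC7A11 could not be lost at the looser q-value of 0.1. With p-values adjusted over expressed genes alone its q was 0.00971, against 0.00964 as deposited. This was no independent check, since the p-value of SLC7A11 is tied for the smallest deposited. The log2 fold change of SLC7A11, 1.29, moved to 0.72 with 1 FPKM added to both levels and to 1.03 with the GC trend removed. Limiting members to a mean of at least 5 FPKM left 0 called, since SLC7A11 is below that level. The members' median log2 fold change, 0.12, stayed between 0.08 and 0.11 with either amount added, no filter, centring on all genes or the GC trend removed, and moved to -0.10 with members at 5 FPKM or more. Counts of called genes on the 7 lists were the same at a q-value of 0.1 and after adjustment over expressed genes alone. In the authors' deposited table the smallest called change was 2.01-fold among genes with a mean of 1 to 2 FPKM and 1.83-fold at 100 FPKM or more, and the depth behind these limits is unknown.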
